A study of Arabidopsis thaliana with 12 samples.

Results

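The 69 genes described here lie on the plastid genome of Arabidopsis thaliana, and each was measured by 1 probe set that the array annotation assigns to it alone. They are 69 of the 22746 probe sets tested, and all were kept whatever their signal. By product they comprise 14 subunits of photosystem II with 1 assembly factor, 5 subunits of photosystem I with 2 assembly factors, 6 subunits of the cytochrome b6f complex, 6 of the ATP synthase and 10 of the NDH complex. The large subunit of Rubisco, 4 subunits of RNA polymerase, 7 large and 8 small ribosomal subunit proteins and 5 genes of other function complete the set. The RefSeq table lists 78 distinct protein-coding symbols for this genome, and 8 further probe sets, whose genes are listed with 2 copies, were set apart by the same rule.

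Plastids keep a small genome of bacterial descent that encodes core proteins of photosynthesis together with part of the machinery that expresses them. Its genes are transcribed by a bacterial-type polymerase, whose core is plastid-encoded and whose sigma factors come from the nucleus, and by nuclear-encoded phage-type polymerases. Most other plastid proteins, including the light-harvesting proteins and many ribosomal proteins, are encoded in the nucleus and made on cytosolic ribosomes. Cycloheximide blocks those cytosolic ribosomes and leaves the bacterial-type ribosomes of the plastid active.

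All RNA came from whole seedlings 9 days old, hybridised to 12 arrays in 6 groups of 2. Seedlings carrying LEAFY-GR, a version of the floral regulator LEAFY joined to the steroid-binding part of the glucocorticoid receptor, were collected at 8 h after dexamethasone with cycloheximide, cycloheximide alone, dexamethasone alone or mock treatment. Dexamethasone lets the fusion enter the nucleus, and the mock seedlings carry the fusion too. The remaining groups were untreated 35S::LFY seedlings, in which a viral promoter drives LEAFY, and untreated Landsberg erecta seedlings. The sources used here name no promoter for LEAFY-GR, and no group without LEAFY-GR received either compound. The level of LEAFY itself was not used to check the labels, as no probe set was named for it here. Each group had 1 array in each of the 2 lots that the labels name without saying what a lot is. The labels are silent on whether both arrays of a group used independent cultures of seedlings. The p-values therefore reflect the scatter among these arrays alone, and that scatter may be technical.

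Values are linear intensities without a unit. Where a group has a pair of values, the first is from lot 1 and the other from lot 2. Changes are differences of log2(intensity + 10), which understate the change of dim probe sets, and each is given with the standard error (SE) of a limma fit to all 12 arrays. A gene was called changed at a Benjamini-Hochberg adjusted p under 0.05 over all tested probe sets. Counts at an unadjusted p under 0.05 are given without the share of all tested probe sets, so they do not show an excess among members. Signals of different genes are not compared, since each probe set binds its target with its own strength. The leaf genes RCA, which encodes Rubisco activase, and LHCB4.1, a light-harvesting protein, ranged over the 12 arrays from 4905 to 8377 and from 3267 to 8019. The root hair expansin EXPA7 ranged from 34.2 to 95.8, and the shoot meristem peptide CLV3 was near the floor at 2.4 to 6.4. In whole seedlings, fewer green cells and less plastid RNA in each cell cannot be told apart.

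With cycloheximide the plastid signals were lower in sum, and the share of single genes that passed the test was near that of all probe sets. The sum of the 69 signals was 102366 and 111123 in cycloheximide seedlings, against 137051 and 129012 in mock seedlings, so both cycloheximide arrays lay below both mock arrays. Bright members weigh most in this sum, and no sum over other probe sets of like brightness is set beside it. A lower sum is thus not shown to be particular to plastid genes. Among single genes, 22 of 69 fell (31.9%) and 0 rose, while over all tested probe sets 25.6% fell and 17.2% rose. The share that fell is thus near that over all tested probe sets, and that none passed as higher does not show that none rose. In the signal ranges described below, from dimmest to brightest, 31.6%, 63.0% and 61.6% of all tested probe sets were called lower. The share of members that fell is therefore not near the background of the upper ranges. Without adjustment, 28 of the 69 had a limma p under 0.05. The median change of the 69 was -0.53, against -0.03 over all tested probe sets, and 63 of the 69 changes were negative. In both lots taken singly, 56 genes were lower with cycloheximide, a direction shared by 41.7% of all tested probe sets.

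**Figure D1:**
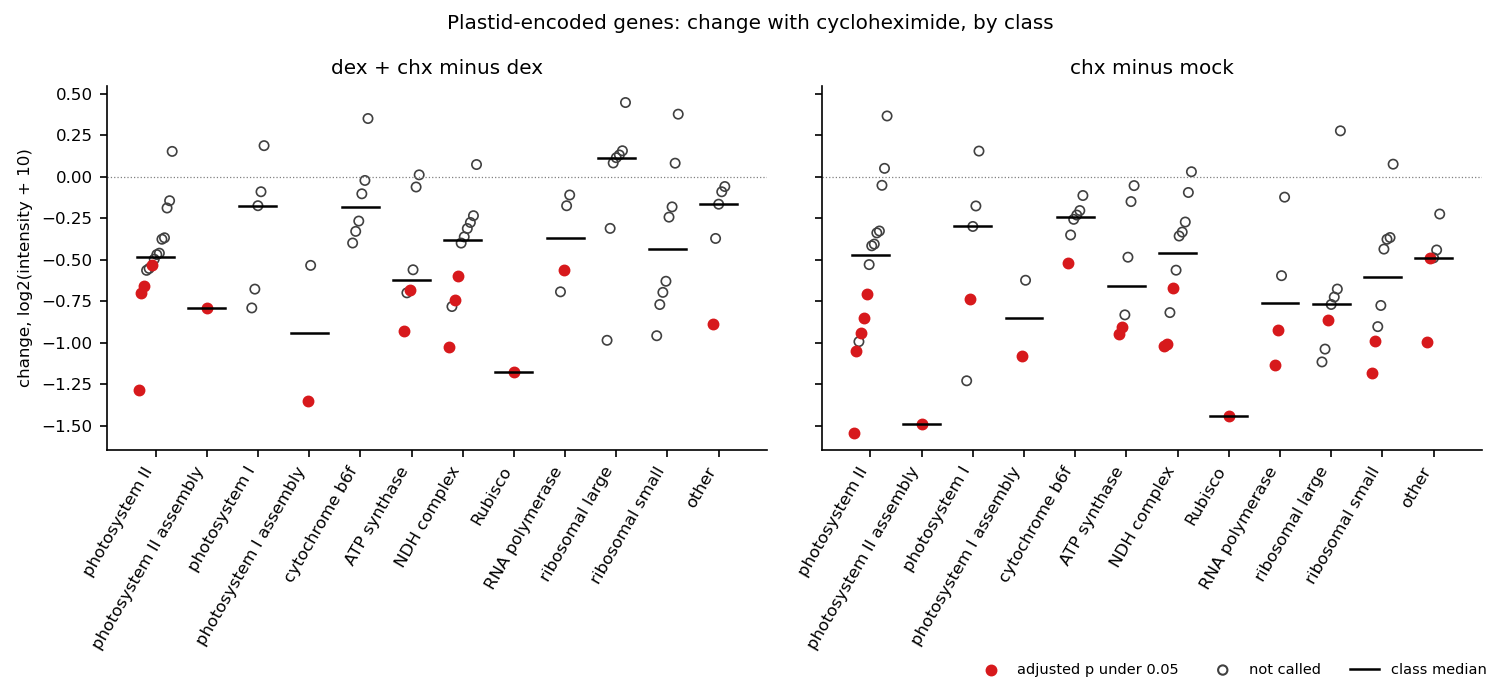
Change in log2(intensity + 10) of each of the 69 plastid genes by class, for dexamethasone with cycloheximide against dexamethasone (left) and cycloheximide against mock (right). Each point is 1 gene from the fit to 12 arrays, filled where it was called, and bars are class medians. All filled points, 14 on the left and 22 on the right, lie below 0.

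In photosystem II, the light-driven enzyme that splits water, 5 of 14 genes fell with cycloheximide, and the class median was -0.47. The largest fall was in psbC, which encodes an inner antenna protein of the core. Its signal was 344 and 504 in cycloheximide seedlings, against 1058.5 and 1439.9 in mock seedlings, a change of -1.55 ± 0.26 (SE, adjusted p = 0.000437). The other 4 encode small membrane subunits or a cytochrome subunit. psbZ gave 1751 and 1333 in cycloheximide seedlings, against 3298 and 3062 in mock seedlings, a change of -1.05 ± 0.21 (SE, adjusted p = 0.00178). psbH gave 964 and 1987 in cycloheximide seedlings, against 2310.2 and 3093 in mock seedlings, a change of -0.94 ± 0.34 (SE, adjusted p = 0.041). psbT gave 289 and 427 in cycloheximide seedlings, against 608 and 676 in mock seedlings, a change of -0.85 ± 0.30 (SE, adjusted p = 0.0389). In these genes the arrays of the 2 groups did not overlap, although the cycloheximide arrays of psbH lay far apart. psbE, which encodes a subunit of the cytochrome of photosystem II, gave 1287 and 1239 in cycloheximide seedlings, against 2145 and 1992 in mock seedlings, a change of -0.71 ± 0.14 (SE, adjusted p = 0.00116). Its arrays were the closest replicates of the 5. psbN, which encodes a protein needed to assemble photosystem II rather than a subunit, gave 73.0 and 102 in cycloheximide seedlings, against 242 and 283 in mock seedlings. It fell by 1.49 on the log2 scale (SE 0.25, adjusted p = 0.000442).

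The reaction centre and second antenna genes of photosystem II did not pass the test. psbB, the other inner antenna gene, gave 222 and 524.5 in cycloheximide seedlings, against 629.6 and 758 in mock seedlings, a change of -0.99 ± 0.40 (SE, adjusted p = 0.0634). psbA, which encodes the reaction centre protein with the fastest turnover, gave 2179.7 and 3908 in cycloheximide seedlings, against 3598 and 4945 in mock seedlings, a change of -0.53 ± 0.31 (SE, adjusted p = 0.207). psbD, which encodes its partner in the reaction centre, gave 204.5 and 399.7 in cycloheximide seedlings, against 311.5 and 477 in mock seedlings, a change of -0.42 ± 0.37 (SE, adjusted p = 0.42). For psbA and psbD the arrays of the groups overlapped, and lot 2 was the brighter lot in both groups. The highest change in the class was that of psbM, a small subunit, with 7608.5 and 10392 in cycloheximide seedlings, against 6297 and 7549 in mock seedlings, a change of 0.37 ± 0.24 (SE, adjusted p = 0.267).

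Photosystem I, which reduces ferredoxin, had 1 of 5 genes called and a median of -0.30. That gene was psaC, whose product carries the terminal iron-sulfur centres. It gave 468 and 912 in cycloheximide seedlings, against 1057 and 1134 in mock seedlings, a change of -0.74 ± 0.27 (SE, adjusted p = 0.0453). The reaction centre gene psaA gave 264 and 963 in cycloheximide seedlings, against 924 and 1561 in mock seedlings. Its change of -1.23 ± 0.59 (SE, adjusted p = 0.121) was as large as that of many called genes, but 1 mock array lay below 1 cycloheximide array. The partner reaction centre gene psaB gave 4528 and 5354.5 in cycloheximide seedlings, against 5789 and 6350.2 in mock seedlings, a change of -0.30 ± 0.21 (SE, adjusted p = 0.304). Of the photosystem I assembly factors, ycf3 gave 259 and 209.9 in cycloheximide seedlings, against 752 and 336 in mock seedlings and changed by -1.08 ± 0.30 (SE, adjusted p = 0.0128). ycf4 was lower on both cycloheximide arrays, 580.4 and 910.0 in cycloheximide seedlings, against 1375 and 921.5 in mock seedlings, and did not pass at -0.62 ± 0.26 (SE, adjusted p = 0.0801). Taken over both photosystems, 6 of 19 subunit genes fell, with a median of -0.42.

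rbcL, which encodes the catalytic large subunit of Rubisco, gave 201 and 190.4 in cycloheximide seedlings, against 678 and 442 in mock seedlings. It changed by -1.44 ± 0.23 (SE, adjusted p = 0.000292), with close replicates in the cycloheximide group. In the cytochrome b6f complex, which links the photosystems, 1 of 6 genes fell and the median was -0.24. That gene was petA, which encodes cytochrome f, with 1770.2 and 1858.5 in cycloheximide seedlings, against 2971 and 2291.5 in mock seedlings and a change of -0.52 ± 0.17 (SE, adjusted p = 0.026). petB, the cytochrome b6 gene, gave 5064 and 6426 in cycloheximide seedlings, against 5758 and 7788 in mock seedlings, a change of -0.23 ± 0.24 (SE, adjusted p = 0.484), and its arrays overlapped.

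Of the ATP synthase genes, 2 of 6 fell and the median was -0.66. atpI, which encodes a subunit of the proton channel, gave 49.1 and 76.1 in cycloheximide seedlings, against 131 and 124 in mock seedlings, a change of -0.95 ± 0.24 (SE, adjusted p = 0.00763). atpF, which encodes a stalk subunit, gave 528 and 808 in cycloheximide seedlings, against 1393 and 1086 in mock seedlings, a change of -0.90 ± 0.22 (SE, adjusted p = 0.00528). Both belong to the membrane part of the enzyme. atpB, which encodes the catalytic beta subunit, gave 5687 and 8898 in cycloheximide seedlings, against 7058 and 8826 in mock seedlings, a change of -0.15 ± 0.28 (SE, adjusted p = 0.715), with overlapping groups.

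The NDH complex, which carries electrons around photosystem I, had 3 of 10 genes called and a median of -0.46. ndhE gave 331 and 440.2 in cycloheximide seedlings, against 883 and 699 in mock seedlings, a change of -1.02 ± 0.17 (SE, adjusted p = 0.000446). ndhJ gave 285 and 407 in cycloheximide seedlings, against 735 and 659 in mock seedlings, a change of -1.01 ± 0.21 (SE, adjusted p = 0.00172). ndhG gave 85.0 and 92.8 in cycloheximide seedlings, against 154 and 140.4 in mock seedlings, a change of -0.67 ± 0.18 (SE, adjusted p = 0.0106). All 3 encode subunits of the complex, and in all 3 both cycloheximide arrays lay below both mock arrays.

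Among the 4 genes for the core of the plastid's own RNA polymerase, 2 fell and the class median was -0.76. rpoC2, which encodes the larger piece of the split beta-prime subunit, gave 270.5 and 273 in cycloheximide seedlings, against 582 and 474 in mock seedlings, a change of -0.92 ± 0.15 (SE, adjusted p = 0.000342). rpoC1, which encodes the other piece, gave 893.5 and 568.5 in cycloheximide seedlings, against 2001 and 1239 in mock seedlings, a change of -1.13 ± 0.32 (SE, adjusted p = 0.0143). The cycloheximide arrays of rpoC2 were nearly identical, whereas those of rpoC1 differed between lots. rpoB, the beta subunit gene next to rpoC1 on the genome, was dim, with 19.5 and 31.9 in cycloheximide seedlings, against 32.0 and 24.9 in mock seedlings, and its change of -0.12 ± 0.29 (SE, adjusted p = 0.784) did not pass. rpoA, the alpha subunit gene, lies in a cluster of ribosomal protein genes elsewhere. It gave 910.5 and 383 in cycloheximide seedlings, against 1501 and 538 in mock seedlings, a change of -0.60 ± 0.52 (SE, adjusted p = 0.402), with a wide spread between lots.

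The 15 ribosomal protein genes had a median of -0.77, close to that of the polymerase genes, but 3 of 15 were called. rps2, a small-subunit gene in the operon of the ATP synthase, gave 928 and 564 in cycloheximide seedlings, against 1984 and 1388 in mock seedlings, a change of -1.19 ± 0.26 (SE, adjusted p = 0.00272). rps16 gave 194 and 104 in cycloheximide seedlings, against 433 and 198 in mock seedlings, a change of -0.99 ± 0.33 (SE, adjusted p = 0.0319). rpl20, the called large-subunit gene, gave 518 and 338 in cycloheximide seedlings, against 982.5 and 605.5 in mock seedlings, a change of -0.87 ± 0.30 (SE, adjusted p = 0.0347). The lower mock array of rps16 lay just above its higher cycloheximide array, and the groups of rpl20 stood further apart. The uncalled rps4 gave 4431 and 3931 in cycloheximide seedlings, against 5587.5 and 5715 in mock seedlings, a change of -0.44 ± 0.20 (SE, adjusted p = 0.104). rpl16 gave 447.5 and 245 in cycloheximide seedlings, against 912 and 336 in mock seedlings, a change of -0.73 ± 0.45 (SE, adjusted p = 0.232). rpl33 gave 2493 and 546 in cycloheximide seedlings, against 3119.6 and 1284 in mock seedlings, a change of -0.77 ± 0.61 (SE, adjusted p = 0.355). In rpl16 and rpl33 the lots differed more than the treatments did, and their standard errors were correspondingly wide. rps14, which is dim, gave 41.6 and 41.9 in cycloheximide seedlings, against 36.9 and 41.4 in mock seedlings, a change of 0.08 ± 0.33 (SE, adjusted p = 0.885).

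Of the 5 genes with other functions, accD and matK fell. accD, which encodes a subunit of acetyl-CoA carboxylase for fatty acid synthesis, gave 227 and 329 in cycloheximide seedlings, against 666 and 465 in mock seedlings, a change of -0.998 ± 0.23 (SE, adjusted p = 0.00434). matK, which encodes a splicing factor for plastid introns, gave 2395 and 2657 in cycloheximide seedlings, against 3671 and 3422 in mock seedlings, a change of -0.49 ± 0.17 (SE, adjusted p = 0.0354). clpP, a subunit of the plastid protease, was lower on both cycloheximide arrays, 2681 and 2384 in cycloheximide seedlings, against 3929 and 3211 in mock seedlings, and missed the threshold at -0.49 ± 0.22 (SE, adjusted p = 0.102). The difference between classes was not tested, and with 4 polymerase genes the class medians are descriptions only.

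In cycloheximide against mock, the median change of the members differed with the brightness of their probe sets. Members were ranked by their mean log2 signal over all 12 arrays and divided into 3 sets of 23. In the dimmest set, with mean signals of 25.2 to 569, 9 fell with cycloheximide and the median change was -0.85, against -0.15 over the 14830 probe sets in the same signal range, of which 31.6% were called lower. In the middle set, at 576 to 2157, 9 fell and the median was -0.73, against -0.84 over 1156 probe sets. In the brightest set, at 2159.7 to 7742, 4 fell and the median was -0.34, against -0.82 over 216 probe sets. In the upper 2 ranges the medians of the plastid genes thus lay closer to 0 than those of all tested probe sets, of which 63.0% and 61.6% were called lower. Genes such as atpB, petB and psaB belong to the brightest set. In dexamethasone with cycloheximide against dexamethasone, the members' medians from the dimmest to the brightest set were -0.50, -0.60 and -0.14. Over all tested probe sets in the same signal ranges the medians were -0.29, -0.71 and -0.66. There 5, 8 and 1 members were called, and 32.9%, 59.3% and 53.7% of all tested probe sets in these ranges were called lower. The order of the members' medians in that comparison did not follow brightness throughout. Whether signal near the top of the scale is compressed was not tested.

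Leaving out 1 array changed the count most for the mock array of lot 1, without which 12 of the 22 calls passed. The 10 lost were matK, ndhG, petA, psaC, psbH, psbT, rpl20, rpoC1, rps16 and ycf3, with adjusted p of 0.0504 to 0.319. Without the cycloheximide array of lot 1, atpF, atpI, matK, petA, psaC, psbH and psbT did not pass, and without that of lot 2, petA, rpl20, rpoC1, rps16 and ycf3 did not. Without the mock array of lot 2, matK, psaC, psbH and psbT did not pass. Arrays of the other groups enter only through the shared spread, and leaving 1 of them out ended the call of psaC, psbH, psbT, rpl20 or matK at adjusted p of up to 0.0626. Some changes also moved by over 1.5 times. Without the cycloheximide array of lot 1, psaC changed by -0.26, psbH by -0.43 and atpF by -0.60, and without that of lot 2, psaC changed by -1.21, psbH by -1.46, rpl20 by -0.57 and rps16 by -0.57. Without the mock array of lot 1, ycf3 changed by -0.51, rps16 by -0.44, rpl20 by -0.52 and petA by -0.34, and without that of lot 2, ycf3 changed by -1.65 and rps16 by -1.54. accD, ndhE, ndhJ, psbC, psbE, psbN, psbZ, rbcL, rpoC2 and rps2 passed in all 20 alternatives that gave a test.

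**Figure D2:**
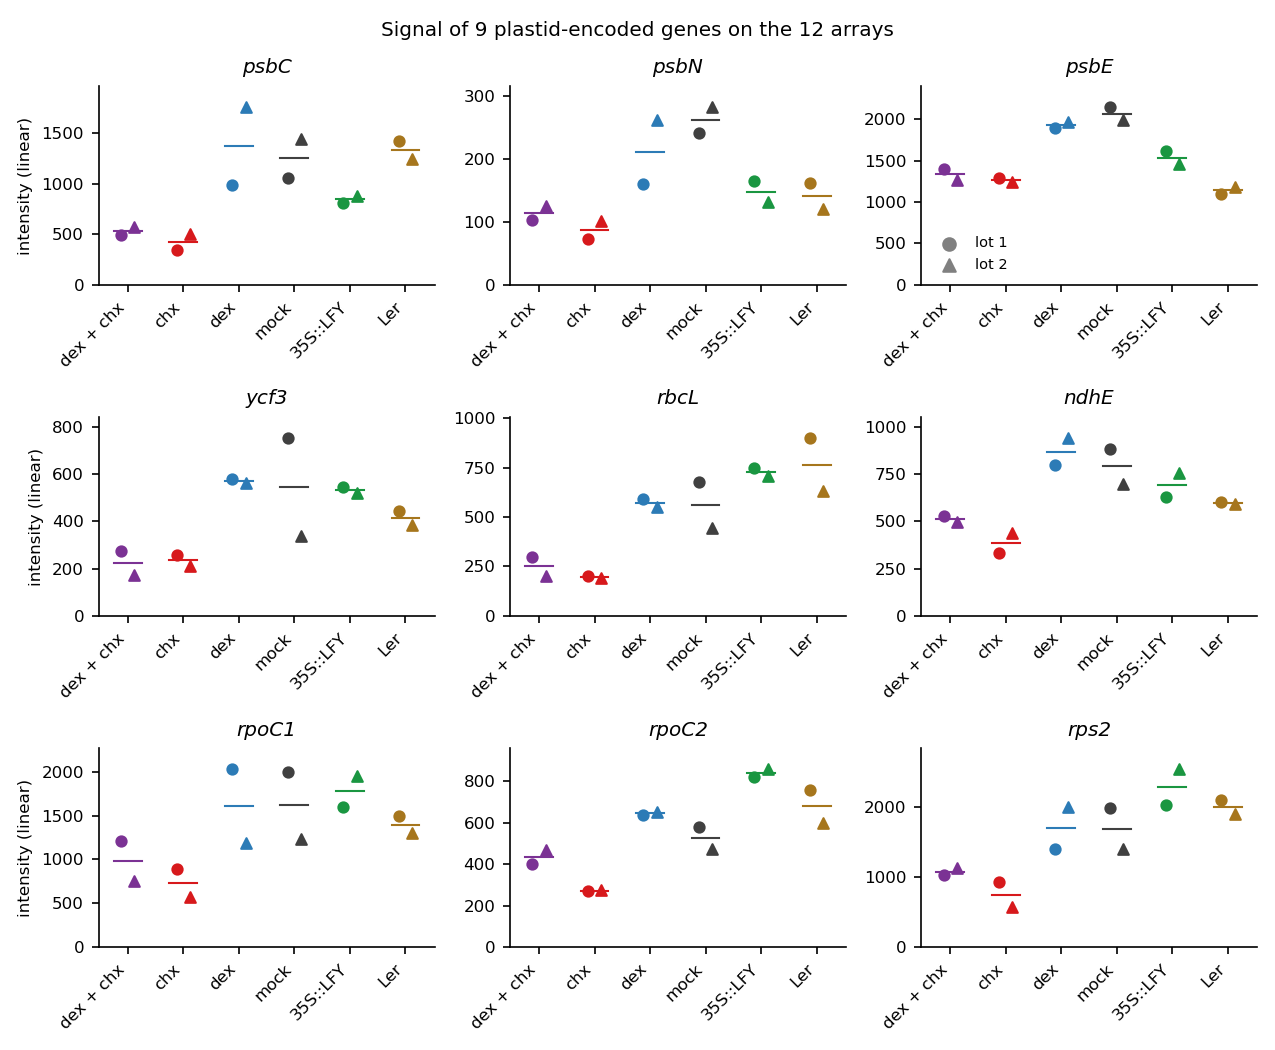
Linear intensity of 9 plastid genes on each of the 12 arrays, with circles for lot 1, triangles for lot 2 and a bar at the mean of each group. In psbC, rbcL and ndhE both groups that received cycloheximide lie below the other LEAFY-GR groups, whereas rpoC1 differs between lots in all 4 LEAFY-GR groups.

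The same comparison made in the presence of dexamethasone gave 14 lower and 0 higher genes. Over all tested probe sets 26.2% fell and 14.4% rose, so the 20.3% of members that fell is below the background. Without adjustment, 23 members had a limma p under 0.05. The median change was -0.37, against -0.17 over all tested probe sets, and 57 of the 69 changes were negative. The summed signal was 117468 and 116809 in dexamethasone with cycloheximide seedlings, against 135324 and 137534 in dexamethasone seedlings, again without overlap. The arrays of this comparison are distinct from those of cycloheximide against mock. Of the genes called, 12 were called in both, which is 54.5% of the 22 and 85.7% of the 14, and atpH and psbI were called here and not there. The overlap over all tested probe sets was not counted. These shares therefore have no background beside them and do not show an agreement particular to plastid genes.

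ycf3 changed most, with 274 and 174 in dexamethasone with cycloheximide seedlings, against 581 and 564 in dexamethasone seedlings and a change of -1.35 ± 0.30 (SE, adjusted p = 0.0035). psbC gave 498 and 573.5 in dexamethasone with cycloheximide seedlings, against 990.2 and 1755 in dexamethasone seedlings, a change of -1.29 ± 0.26 (SE, adjusted p = 0.00172). rbcL gave 299.8 and 204 in dexamethasone with cycloheximide seedlings, against 592 and 552 in dexamethasone seedlings, a change of -1.18 ± 0.23 (SE, adjusted p = 0.00136). These 3 genes, for a photosystem I assembly factor, an antenna protein and the Rubisco large subunit, were also among the lower genes of the first comparison. ndhG gave 97.9 and 96.7 in dexamethasone with cycloheximide seedlings, against 197 and 222 in dexamethasone seedlings, a change of -1.03 ± 0.18 (SE, adjusted p = 0.000673). accD gave 370.3 and 382 in dexamethasone with cycloheximide seedlings, against 729.7 and 679 in dexamethasone seedlings, a change of -0.89 ± 0.23 (SE, adjusted p = 0.00926). psbN gave 104 and 126 in dexamethasone with cycloheximide seedlings, against 160.1 and 262.5 in dexamethasone seedlings, a change of -0.79 ± 0.25 (SE, adjusted p = 0.0246). Replicates of ndhG and accD were close in both groups, and psbN in dexamethasone seedlings was not.

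Among the remaining photosystem genes, psbZ gave 2320.2 and 1658 in dexamethasone with cycloheximide seedlings, against 3244 and 3147 in dexamethasone seedlings, a change of -0.70 ± 0.21 (SE, adjusted p = 0.0209). psbE gave 1403 and 1268 in dexamethasone with cycloheximide seedlings, against 1894 and 1973 in dexamethasone seedlings, a change of -0.53 ± 0.14 (SE, adjusted p = 0.0077). psbI, a small subunit of photosystem II, gave 824 and 707 in dexamethasone with cycloheximide seedlings, against 1237 and 1185.5 in dexamethasone seedlings, a change of -0.66 ± 0.19 (SE, adjusted p = 0.0169). psbI had overlapping groups in the first comparison, with 1418 and 922 in cycloheximide seedlings, against 1223 and 996 in mock seedlings. Of the NDH genes, ndhE gave 528 and 499 in dexamethasone with cycloheximide seedlings, against 797 and 940.1 in dexamethasone seedlings, a change of -0.74 ± 0.17 (SE, adjusted p = 0.0043). ndhJ gave 479 and 515 in dexamethasone with cycloheximide seedlings, against 719 and 795 in dexamethasone seedlings, a change of -0.60 ± 0.21 (SE, adjusted p = 0.0364). Both encode subunits that were also called without dexamethasone. atpF gave 769 and 968 in dexamethasone with cycloheximide seedlings, against 1202 and 1606 in dexamethasone seedlings, a change of -0.68 ± 0.22 (SE, adjusted p = 0.0258). atpH, the gene of the proton-driven ring of the ATP synthase, gave 492 and 747.5 in dexamethasone with cycloheximide seedlings, against 937 and 1449 in dexamethasone seedlings, a change of -0.93 ± 0.32 (SE, adjusted p = 0.0349), and in cycloheximide against mock it narrowly missed the threshold at -0.83 ± 0.32 (SE, adjusted p = 0.0535).

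Of the polymerase genes 1 of 4 fell, near the background share, and classes were not tested against each other. rpoC2 gave 402 and 467 in dexamethasone with cycloheximide seedlings, against 639 and 653 in dexamethasone seedlings, a change of -0.56 ± 0.15 (SE, adjusted p = 0.00979). rpoC1 gave 1216 and 752 in dexamethasone with cycloheximide seedlings, against 2030.2 and 1187 in dexamethasone seedlings, a change of -0.69 ± 0.32 (SE, adjusted p = 0.116). None of the 15 ribosomal genes was called by limma, 2 had an unadjusted p under 0.05 (rps2 and rps16), and their median was -0.18 with 8 negative. rps2 gave 1024.5 and 1121 in dexamethasone with cycloheximide seedlings, against 1390.5 and 1992 in dexamethasone seedlings, a change of -0.63 ± 0.26 (SE, adjusted p = 0.0737). The ribosomal median turned positive, 0.06, with arrays scaled to equal medians, and the b6f median turned likewise to 0.05. Photosystem genes had 4 of 19 called and a median of -0.47. Scaling matters here because it moves the median of all tested probe sets from -0.17 as deposited to -0.02 with equal medians and -0.40 with the hybridisation controls. The members' median was -0.13 and -0.69 under these scalings and their calls 5 and 25, all lower. The median of all members thus stayed below that of all tested probe sets. As deposited, members in the middle and brightest signal ranges had medians of -0.60 and -0.14. All tested probe sets in these ranges had lower medians, -0.71 and -0.66. In the dimmest range the members' median was the lower, at -0.50 against -0.29. The 5 calls that held in all 20 alternatives were ndhE, ndhG, psbC, rbcL and ycf3. Without the dexamethasone array of lot 2, or without the dexamethasone with cycloheximide array of lot 1, 9 genes were called. Both fits lost atpF, atpH, ndhJ and psbN, the first also psbI and psbZ, and the other also rpoC2. Without the dexamethasone array of lot 2, psbN changed by -0.45 and atpH by -0.62, and without the dexamethasone with cycloheximide array of lot 2, psbZ changed by -0.46 and was not called.

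A difference between the responses with and without dexamethasone was not established for any plastid gene. The interaction, which sets the effect of cycloheximide with dexamethasone against that without it, called 0 of 69 genes by limma, with 1 unadjusted p under 0.05 (psbI) and a lowest adjusted p of 0.932. Over all tested probe sets 0.0308% were called. The median interaction of the 15 ribosomal genes was 0.45 and that of all 69 was 0.14, against -0.08 over all tested probe sets. The median of the 69 changed direction with the setting. It was -0.04 with the hybridisation controls, -0.10 in lot 2 alone, 0.32 with equal medians and 0.04 to 0.27 when 1 array was left out.

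**Figure D3:**
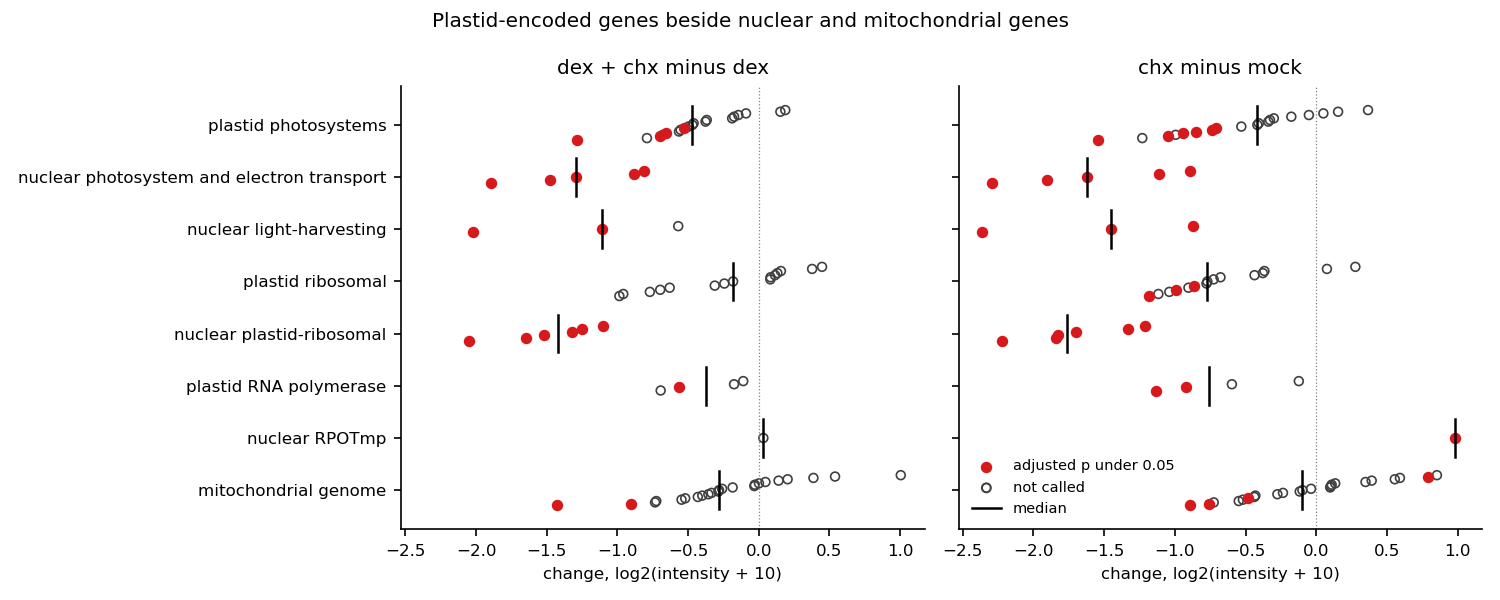
Change in log2(intensity + 10) of plastid genes beside nuclear genes for the same complexes and beside mitochondrial genes, for dexamethasone with cycloheximide against dexamethasone (left) and cycloheximide against mock (right). Points are probe sets, filled where called, and bars are medians. The medians of the nuclear photosystem and electron transport genes, which include ATPC1 of the ATP synthase, lie below those of the plastid photosystem genes in both panels. Those of the nuclear plastid-ribosomal genes lie below those of the plastid ribosomal genes. Single points of the nuclear and plastid photosystem genes overlap.

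Nuclear genes for the same plastid complexes had lower medians. Of the nuclear-encoded plastid ribosomal proteins, 6 of 28 listed were measured and all 6 fell in cycloheximide against mock, with a median of -1.76, against -0.77 for the plastid-encoded ones. PRPL29 changed most, with 589 and 409.5 in cycloheximide seedlings, against 2150.4 and 2517.5 in mock seedlings, a change of -2.22 ± 0.17 (SE, adjusted p = 1e-06). PRPS6 changed by -1.84, PRPL5 by -1.21 and PRPL3 by -1.83. All 5 measured nuclear photosystem and electron transport genes fell too, with a median of -1.62, against -0.42 for the plastid photosystem genes. These sets are not alike, as the nuclear one includes ATPC1, an ATP synthase gene. The plastid ATP synthase genes had a median of -0.66. PSAN, a lumenal subunit of photosystem I, gave 1316 and 904.5 in cycloheximide seedlings, against 3504 and 4823 in mock seedlings. PSAE1, another photosystem I subunit, changed by -2.29, PSBY by -1.62 and PSBW by -1.11. The 3 measured light-harvesting genes, LHCB4.1, LHCB4.2 and LHCB4.3, changed by -0.87, -2.36 and -1.45, all called lower. Apart from LHCB4.3, these nuclear probe sets have mean signals within the middle and brightest ranges above, where 63.0% and 61.6% of all tested probe sets were called lower, with medians of -0.84 and -0.82. The size of the gap between nuclear and plastid genes was not tested. The nuclear genes were those of each list to which the annotation assigns a probe set of their own.

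With dexamethasone present, 6 of 6 nuclear ribosomal and 5 of 5 nuclear photosystem and electron transport genes, ATPC1 among them, fell as well. Their medians were -1.42 and -1.29. In the middle and brightest signal ranges, 59.3% and 53.7% of all tested probe sets were called lower in that comparison, with medians of -0.71 and -0.66. RCA was not called, at -0.27 ± 0.26 (SE, adjusted p = 0.464) against mock. CRP1, a nuclear-encoded factor for the processing of plastid transcripts, gave 73.8 and 116 in cycloheximide seedlings, against 183 and 217 in mock seedlings, a change of -1.02 ± 0.26 (SE, adjusted p = 0.00724). RPOTmp, a phage-type polymerase found in mitochondria and plastids, gave 38.9 and 23.0 in cycloheximide seedlings, against 9.6 and 11.1 in mock seedlings. It rose by 0.98 (SE 0.36, adjusted p = 0.0446) from a signal near the floor, and with dexamethasone present its change was 0.03 and was not called. The 6 sigma factors and the 12 proteins associated with the plastid polymerase were not analysed here, as no named probe set measured them.

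Probe sets of the mitochondrial genome were mostly dim, with 18 of 23 at a mean signal under 60, where log2(intensity + 10) understates changes, so their median is not set against that of the plastid genes. The 23 probe sets of 16 mitochondrial genes had a median of -0.10 in cycloheximide against mock, with 3 lower, 1 higher and 13 negative. Over all tested probe sets 25.6% were called lower and 17.2% higher, so both counts are below the background. matR, the mitochondrial intron maturase gene, was the higher one, with 19.0 and 5.1 in cycloheximide seedlings, against 2.0 and 2.2 in mock seedlings. All 4 values are near the floor, and the lot 1 cycloheximide array stands apart. ccmFN1 changed by -0.48, 1 probe set of nad5 by -0.76 and 1 of nad1 by -0.89, all 3 called lower. The other probe sets of nad5 and nad1 were not called, and they ranged from -0.52 to 0.59. With dexamethasone present, the median was -0.28, with 2 lower, which is also below the 26.2% of all tested probe sets called lower there.

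Activation or overexpression of LEAFY moved no plastid gene past the threshold. In dexamethasone against mock, 0 of 69 were called by limma, 2 had an unadjusted p under 0.05 (ndhG and ccsA) and the median was 0.05, against 0.07 over all tested probe sets, of which 0.475% were called. In dexamethasone with cycloheximide against cycloheximide, 0 of 69 were called, 4 had an unadjusted p under 0.05 (psbI, rpoC2, ndhJ and ndhE) and the median was 0.20, against -0.01 over all tested probe sets, of which 0.193% were called. In 35S::LFY against Landsberg erecta, 0 of 69 were called, 4 had an unadjusted p under 0.05 (psbC, psbZ, petA and psbE) and the median was -0.04, the same as over all tested probe sets, of which 0.295% were called. The first and last of these medians changed direction with the setting. That of dexamethasone against mock was -0.09 with equal medians. That of 35S::LFY against Landsberg erecta was 0.07 with equal medians or in lot 2 alone, 0.06 without the 35S::LFY array of lot 1 and -0.13 without that of lot 2. With so few calls among all probe sets, a count of 0 among 69 is near the background in each of the 3 comparisons. In dexamethasone with cycloheximide against cycloheximide, 39 of 69 members were higher in both lots taken singly, against 24.4% of all tested probe sets. In dexamethasone against mock 18 were, against 39.8%, and in 35S::LFY against Landsberg erecta 20, against 24.5%. These directions were not tested.

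The closest to a call was rpoC2 in dexamethasone with cycloheximide against cycloheximide. Its signal was 402 and 467 in dexamethasone with cycloheximide seedlings, against 270.5 and 273 in cycloheximide seedlings, a change of 0.65 ± 0.15 (SE, adjusted p = 0.197). The groups did not overlap, but in dexamethasone against mock the same gene changed by 0.29, with 639 and 653 in dexamethasone seedlings, against 582 and 474 in mock seedlings. psbC was lower in 35S::LFY seedlings, 811 and 879, against 1423.5 and 1241 in Landsberg erecta seedlings, at -0.65 ± 0.26 (SE, adjusted p = 0.722). rbcL gave 746 and 705 in 35S::LFY seedlings, against 898 and 631 in Landsberg erecta seedlings, and did not pass at -0.05 ± 0.23 (SE, adjusted p = 1).

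Mock-treated LEAFY-GR seedlings differed from untreated Landsberg erecta in 1 plastid gene. psbE gave 2145 and 1992 in mock seedlings, against 1096.5 and 1184 in Landsberg erecta seedlings, a change of 0.85 ± 0.14 (SE, adjusted p = 0.00238) that held in all 20 alternatives. Over all tested probe sets, 4.0% were called higher and 3.82% lower, so 1 of 69 is below the background. psbN gave 242 and 283 in mock seedlings, against 163 and 120.5 in Landsberg erecta seedlings, and did not pass at 0.86 ± 0.25 (SE, adjusted p = 0.0632). In all, 12 members had an unadjusted p under 0.05, of which psbE, psbN, psbF, psbT and ndhE were positive and ndhK, accD, psbI, ndhJ, clpP, rpl16 and rpoC2 negative. The comparison joins the transgene and the mock treatment, which cannot be told apart. psbE in 35S::LFY seedlings was 1619 and 1455, between the Landsberg erecta and mock arrays.

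**Figure D4:**
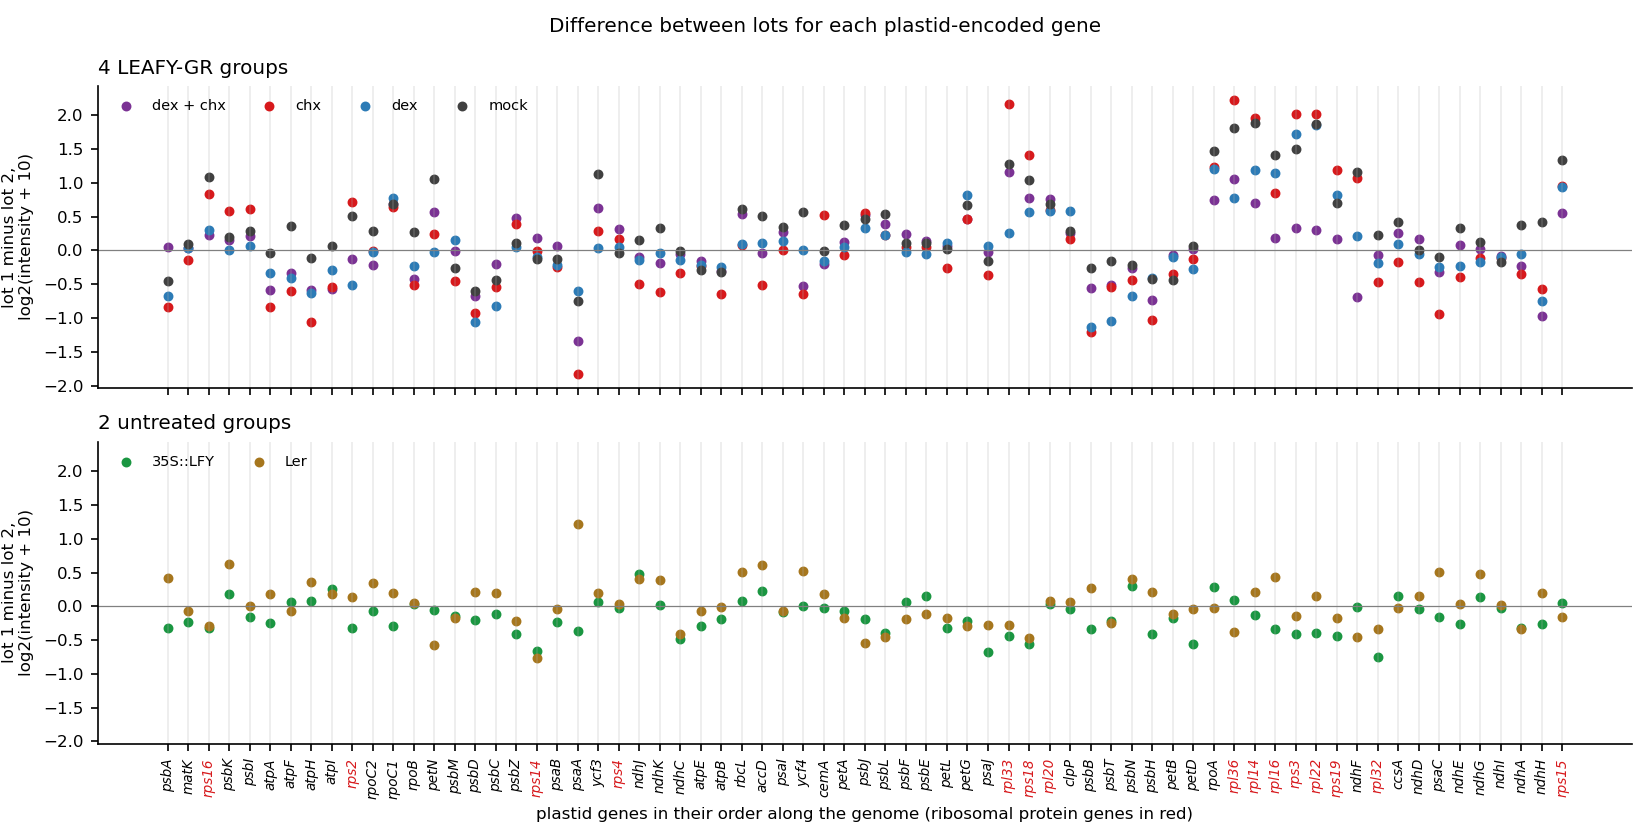
Lot 1 minus lot 2 in log2(intensity + 10) for each of the 69 plastid genes, placed in their order along the genome, in the 4 LEAFY-GR groups (top) and the 2 untreated groups (bottom). Each point is a difference between single arrays. The run of 7 genes from rpoA to rps19 is above 0 in all 4 LEAFY-GR groups and lies around 0 in the untreated groups.

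The 2 lots differed in 10 plastid genes of the LEAFY-GR seedlings, 9 of them genes of the genetic machinery. This comparison was chosen after the values were seen. With a lot term for the 4 LEAFY-GR groups and another for the 2 untreated groups, 9 of 69 genes (13.0%) were higher and 1 was lower in lot 1 than in lot 2 of the LEAFY-GR groups. Over all tested probe sets 0.444% were higher and 0.202% lower. Of the 10 genes, 7 encode ribosomal proteins and 2 polymerase subunits. The ribosomal median was 0.90, against -0.13 for the photosystem genes and -0.07 over all tested probe sets. The photosystem median turned to 0.05 with quantile normalisation and 0.04 with the hybridisation controls, and the ribosomal median stayed positive under these scalings and with equal medians.

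rpl22, rpl36, rpl14 and rps3, which lie close together in a ribosomal protein cluster, differed most among the called genes. rps3 gave 2367 in lot 1 and 1871 in lot 2 of dexamethasone with cycloheximide seedlings. It gave 2899 in lot 1 and 706 in lot 2 of cycloheximide seedlings. It gave 2954 in lot 1 and 884 in lot 2 of dexamethasone seedlings. Mock seedlings showed the same order, with 3142 in lot 1 and 1105 in lot 2, so that lot 1 was higher in all 4 groups and least so with dexamethasone and cycloheximide together. In untreated seedlings the order was the opposite. There rps3 gave 2517 in lot 1 and 3340.0 in lot 2 of 35S::LFY, and 2797.5 in lot 1 and 3081 in lot 2 of Landsberg erecta. The fitted difference of rps3 between lots of the LEAFY-GR groups was 1.397 ± 0.23 (SE, adjusted p = 0.0431).

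The polymerase gene rpoA, at the edge of the same cluster in genome order, behaved alike. It gave 1501 in lot 1 and 538 in lot 2 of mock seedlings, with a fitted difference of 1.16 ± 0.12 (SE, adjusted p = 0.018). rpl36 gave 991 in lot 1 and 274 in lot 2 of mock seedlings, with a fitted difference of 1.47 ± 0.21 (SE, adjusted p = 0.0321). rpl14 differed by 1.43 ± 0.19 (SE, adjusted p = 0.0253). rpl22 differed by 1.52 ± 0.25 (SE, adjusted p = 0.0435). With rps3 these are 5 of the 7 members from rpoA to rps19, and rpl16 and rps19 were not called. The 2-copy ribosomal genes rpl2 and rpl23 had fitted differences of 0.09 and 0.34 and were not called. Outside it, rps18 differed by 0.95 ± 0.13 (SE, adjusted p = 0.0253) and its neighbour rpl20 by 0.66 ± 0.07 (SE, adjusted p = 0.0218). rps15 differed by 0.95 ± 0.12 (SE, adjusted p = 0.0253). rpoC1 differed by 0.70 ± 0.10 (SE, adjusted p = 0.0305), its neighbours rpoC2 and rpoB were not called, and psbD was the gene lower in lot 1, with -0.82 ± 0.11 (SE, adjusted p = 0.0253).

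Counted without a test, 23 of 69 members were higher and 15 lower in lot 1 in all 4 LEAFY-GR groups, against 8.79% and 18.8% of all tested probe sets. By class, 11 of 15 ribosomal and 2 of 4 polymerase genes were on the higher side. On the lower side were 4 of 6 ATP synthase genes. The photosystem genes were divided, with 6 of 19 higher and 7 of 19 lower. In genome order these genes formed runs. The longest was 7 genes higher in lot 1, rpoA, rpl36, rpl14, rpl16, rps3, rpl22 and rps19. It lies near a run of 5 lower, psbB, psbT, psbN, psbH and petB, which is preceded by 4 higher, rpl33, rps18, rpl20 and clpP. Neighbouring plastid genes share transcripts, so they are not independent observations.

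In the untreated groups the lot difference called 0 of 69 members by limma, with 10 at an unadjusted p under 0.05, and 0.0% of all tested probe sets. The difference between the lot effects of LEAFY-GR and untreated seedlings also called 0 of 69 and 0.0% of all tested probe sets. Its lowest limma adjusted p among members was 0.299, so a lot effect particular to LEAFY-GR seedlings was not established. Among members, 27 of 69 had an unadjusted limma p under 0.05, a count with no share of all tested probe sets beside it. The fit has 4 residual degrees of freedom and depends on nearly every array. Without any 1 array of the cycloheximide, dexamethasone, mock, 35S::LFY or Landsberg erecta groups it called 0 members, and at most 7 of all tested probe sets. Without either dexamethasone with cycloheximide array it called 11.

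RNA quality measures moved with the lots. The ratio of the 3′ to the 5′ actin control probe set was 2.11 in lot 1 and 1.399 in lot 2 of dexamethasone with cycloheximide seedlings, and 1.78 and 1.35 in cycloheximide seedlings. It was 1.94 in lot 1 and 1.67 in lot 2 of dexamethasone seedlings, and 1.75 and 1.63 in mock seedlings. The ubiquitin ratio was ordered in the same way in these groups, and the GAPDH ratio was not. In untreated seedlings lot 1 was not the higher for actin, at 1.98 and 1.99 in 35S::LFY and 1.98 and 2.25 in Landsberg erecta. The part of RNA quality in the lot difference was not tested, and the sources used here do not say whether the labelling primed on poly(A) tails, which most plastid transcripts lack.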

How the data were processed

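The authors deposited 1 linear intensity per probe set and array, with no background values or detection calls, and the sources used here do not name the software behind it. Judging from the values, the arrays had been scaled to a common trimmed mean of 150.01 to 150.02, and they were used as deposited. Array medians were 49.8 to 69.4 and 15.0% to 17.6% of values lay below 10. The number of arrays limits the precision. After 64 control probe sets were left out, 22746 were tested as log2(intensity + 10) with limma 3.58.1 in R 4.3.3, with 1 mean per group, an intensity trend, 6 residual and 5.34 prior degrees of freedom, and Benjamini-Hochberg adjustment over all tested. The fit was tested on simulated data. Tables and plots used Python 3.11.15, pandas 2.3.3, numpy 2.4.6 and matplotlib 3.10.9.

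Probe sets were named through the platform's annotation table and the RefSeq gene table of TAIR10.1, used for names and gene order only. Of 14016 annotated probe sets, 13513 have 1 gene and 503 several. The members, the gene lists and the lot comparison were chosen with earlier results of these data known. Named genes are every plastid gene called, a fixed list of well-known plastid genes (ndhB and ycf1 lack a probe set of their own), and up to 4 members of each nuclear list with the smallest p. Genes named for an unadjusted p, psbM, ycf4 and members of runs were picked with their values in view.

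The labels give each array's lot, which equals the replicate number and pairs arrays across groups. Deviations of the arrays of a lot from their group means correlated between groups at r = 0.0488 to 0.334 across probe sets. Alternatives changed the pseudocount (1 and 50), the scaling, a filter at a mean of 20, the trend, the lot as a block, and the arrays included. 9 hybridisation control probe sets served for 1 scaling. All 69 members have plain identifiers, so leaving out those marked for cross-hybridisation changed nothing.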

Additional observations from a re-analysis of the deposited data

How the results depend on the processing

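All called members kept their direction under every alternative. With the lot as a replicate block, cycloheximide against mock called 26 plastid genes, dexamethasone with cycloheximide against dexamethasone 16 and mock against Landsberg erecta 2, with 0 for each remaining comparison, and it ended no call. For cycloheximide against mock, quantile normalisation gave a median of -0.68, and leaving out 1 array gave counts of 12 to 25 and medians of -0.72 to -0.34. For dexamethasone with cycloheximide against dexamethasone, equal medians gave 5 calls and a median of -0.13, quantile normalisation 22 and -0.52, and hybridisation controls 25 and -0.69. Lot 2 alone gave -0.42, and leaving out 1 array gave 9 to 17 calls and medians of -0.41 to -0.34. For mock against Landsberg erecta, 2 genes were called with dim probe sets left out or quantile normalisation and 3 with equal medians, whose median was 0.16, and leaving out 1 array gave 1 to 3 calls and medians of -0.15 to 0.14. The median for dexamethasone against mock was -0.032 to 0.21 when 1 array was left out, highest without the mock array of lot 1, and lot 2 alone gave 0.10 for dexamethasone with cycloheximide against cycloheximide. The lot difference in LEAFY-GR groups, with alternatives chosen after seeing the data, called 21 genes with dim probe sets left out, 16 with equal medians and 0 to 11 when 1 array was left out. Each fit without an array has fewer residual degrees of freedom, and the part of this in the lower counts was not tested. A group left with 1 array was assumed to vary like the others.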

Other observations

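The 8 probe sets for plastid genes listed with 2 copies, which measure ndhB, rpl2, rpl23, rps7, rps12, ycf1 and ycf2, were outside the rule. None was called in cycloheximide against mock, where 2 had an unadjusted limma p under 0.05 and the median change was -0.28, nor in dexamethasone with cycloheximide against dexamethasone, where none had an unadjusted p under 0.05 and the median was -0.12. ycf1, which encodes a large envelope protein linked to protein import, had the widest gap between lots of the 8. It gave 345.5 in lot 1 and 86.8 in lot 2 of dexamethasone with cycloheximide seedlings, and 586 and 48.0 in cycloheximide seedlings. Dexamethasone seedlings had 428 in lot 1 and 99.3 in lot 2, and mock seedlings 940.1 and 101. In untreated seedlings the lots were close, at 529 and 524 in 35S::LFY and 298 and 409.7 in Landsberg erecta. The fitted lot difference of the LEAFY-GR groups was 2.59 ± 0.24 (SE, limma adjusted p = 0.011), and ycf1 was picked after its values were seen.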
